A study of Mus musculus with 9 samples.

Results

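The genes described here were 9 of the 24594 genes in the expression table. They were chosen by symbol as the pro-apoptotic members of the BCL2 family, Bcl2l11, Bax, Bak1, Bad, Bbc3, Bid, Pmaip1 and Bmf, together with Acoxl, the gene that lies directly upstream of Bcl2l11. All 9 were found once each in the table.

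Expression was measured by bulk RNA sequencing in 9 libraries of thymocytes with the transgenic OT-II receptor, specific for an ovalbumin peptide. Lethally irradiated hosts received marrow of 3 donors together, and thymocytes were sorted 4.7 weeks later as CD4+ CD8- CD69+ Vα2+ Vβ5+ cells, which are CD4 single-positive (SP4) cells at a semimature stage. The control donor was OT-II and Nr4a1+/+ Nr4a3+/+, an F1 of BoyJ with B6.Cg-Tg(TcraTcrb)425Cbn/J. The double knockout (DKO) donor was OT-II and labelled Nr4a1-/- Nr4a3-/-, on C57BL/6, and the last donor was wild-type without the transgene. Per the labels, hosts were wild-type BoyJ mice (WT hosts) or F1 mice of BoyJ with the WehiJ strain of C57BL/6 with the transgene Tg(Ins2-TFRC/OVA)296Wehi (RIPmOVA hosts), in which the insulin promoter drives a membrane-bound ovalbumin that OT-II cells meet as a self-antigen in the thymus. There were 2 libraries of OT-II cells from WT hosts, 3 of DKO-labelled cells from WT hosts, 2 of OT-II cells from RIPmOVA hosts and 2 of DKO-labelled cells from RIPmOVA hosts. The study's methods differ from the labels in describing wild-type mice with both CD45 alleles as F1 animals of that same cross. OT-II and DKO-labelled libraries with the same number came from the same chimera. Strain background differed between the donors as well as the Nr4a alleles, so the genotype and the background cannot be told apart. Per the labels the host strain also differed along with the transgene. In host comparisons the self-antigen and the host background therefore cannot be told apart.

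BCL2 family proteins set the threshold for mitochondrial apoptosis. BAX and BAK, the effectors, permeabilize the outer mitochondrial membrane and release cytochrome c. The BH3-only proteins BIM (Bcl2l11), PUMA (Bbc3), NOXA (Pmaip1), BID, BAD and BMF act upstream, either by binding the effectors or by occupying pro-survival relatives such as BCL2 and MCL1. BIM is the BH3-only protein best known for the deletion of self-reactive thymocytes. Acoxl is named for its likeness to acyl-CoA oxidases and is not a member of the BCL2 family.

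Bcl2l11 (Entrez 12125) occupies chr2:128126038-128162547 on the plus strand of GRCm38, the build also called mm10. Acoxl (Entrez 74121) occupies chr2:127838876-128123873 on the same strand, and its annotated end lies 2164 bases before the Bcl2l11 start. The starts of the pair are 287.2 kb apart. In RefSeq the span of Acoxl runs past the Bcl2l11 start, whereas in GENCODE the genes share no base. The 250 bases before a RefSeq start of each gene are printed because these neighbours moved together across the 4 groups. RefSeq promoter windows on GRCm38.p6 were matched for 8 of the 9 genes, and neither window below overlaps a GENCODE exon. The window of Bcl2l11 is chr2:128125788-128126037 and that of Acoxl is chr2:127854378-127854627, both on the plus strand. The RefSeq start of Acoxl lies 15752 bases after the GENCODE start given above, and Bcl2l11 has 2 RefSeq windows, of which the upstream one is printed. Capitals mark matches on either strand to GTAAACA, a site of FOXO factors, or to GGGCGG, the GC box.
Bcl2l11: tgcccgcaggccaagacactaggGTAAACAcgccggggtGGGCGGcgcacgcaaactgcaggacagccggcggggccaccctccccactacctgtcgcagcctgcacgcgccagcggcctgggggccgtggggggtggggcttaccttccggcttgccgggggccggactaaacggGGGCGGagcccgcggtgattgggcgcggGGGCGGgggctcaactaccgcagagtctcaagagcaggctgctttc
Acoxl: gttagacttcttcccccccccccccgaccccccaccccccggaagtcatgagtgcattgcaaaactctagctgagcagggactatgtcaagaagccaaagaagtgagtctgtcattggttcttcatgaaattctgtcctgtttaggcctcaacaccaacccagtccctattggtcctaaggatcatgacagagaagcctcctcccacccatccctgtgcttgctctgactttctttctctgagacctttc

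The Bcl2l11 window held 1 match to GTAAACA and 3 to GGGCGG, and the Acoxl window held neither. The other Bcl2l11 window, chr2:128127325-128127574, held 2 matches to GGGCGG and 0 to GTAAACA. Of all 32851 promoter windows of this length, 3.2% held GTAAACA and 32.7% held GGGCGG. The letters AAAGGTCA, the NBRE sequence that NR4A proteins bind, were searched on both strands and were in none of these 3 windows, and 1.3% of all windows held them. The shorter AGGTCA, which is part of the NBRE, was also absent from all 3 windows and was found in 14.0% of all windows. The E-box CACGTG was absent from them and was found in 6.0%. These searches cover only the windows named.

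Library depth, recovered from the size of 1 read in the table, was 15520000 to 25050000 reads. The floor used here, 3 reads, then corresponded to 0.12 to 0.193 RPKM (reads per kilobase of gene length, scaled to library depth) for a gene of 1 kb, and such floors cover counting error only. The summed RPKM of sensory receptor genes, which T cells are not known to use and which serve as a measure of background, was 457 in OT-II library 1 and 475 in DKO-labelled library 2 from WT hosts and 503 and 669 in the DKO-labelled RIPmOVA-host libraries, against 98.4 to 224 in the other libraries. Of 8 SP4 thymocyte markers, all were above the filter on low values in these libraries, with a summed RPKM of 1450 to 1660 across the 9. Foxn1, Aire, Psmb11 and Krt5 of thymic epithelium, Pax5 of B cells, Eomes and Klrb1c of NK cells, Alas2, Col1a1 and Pdgfra of erythroid and stromal cells, and Csf1r, Flt3, Itgax and Siglech of myeloid cells stayed under 1 RPKM in every library. Other genes of the same lists did not: Epcam was 2.24 to 10.2 RPKM, Cd79a 2.31 to 6.33, Tbx21 up to 7.44, Lyz2 0.879 to 18.7, Hba-a1 up to 13.9, Hbb-bt 0.556 to 11.7 and Pecam1 30.1 to 53.6.

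The deleted genes were examined first as a check on the labels. Nr4a1, which encodes the nuclear receptor NUR77, was 60.7 and 86.1 RPKM in OT-II libraries and 60.1, 80.2 and 87.7 RPKM in DKO-labelled WT-host libraries. In RIPmOVA hosts Nr4a1 was 260 and 229 RPKM under the OT-II label and 282 and 235 RPKM under the DKO label. Nr4a3, which encodes the relative NOR1, was 5.66 and 3.72 RPKM in OT-II libraries and 16.5 and 14.1 RPKM in DKO-labelled RIPmOVA-host libraries. Gene-level values were thus not lower under the DKO label for either gene. Values summed over all exons do not show whether a deleted or altered exon was read, so they check neither allele, and every direction given below for DKO-labelled libraries rests on the labels.

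**Figure D1:**
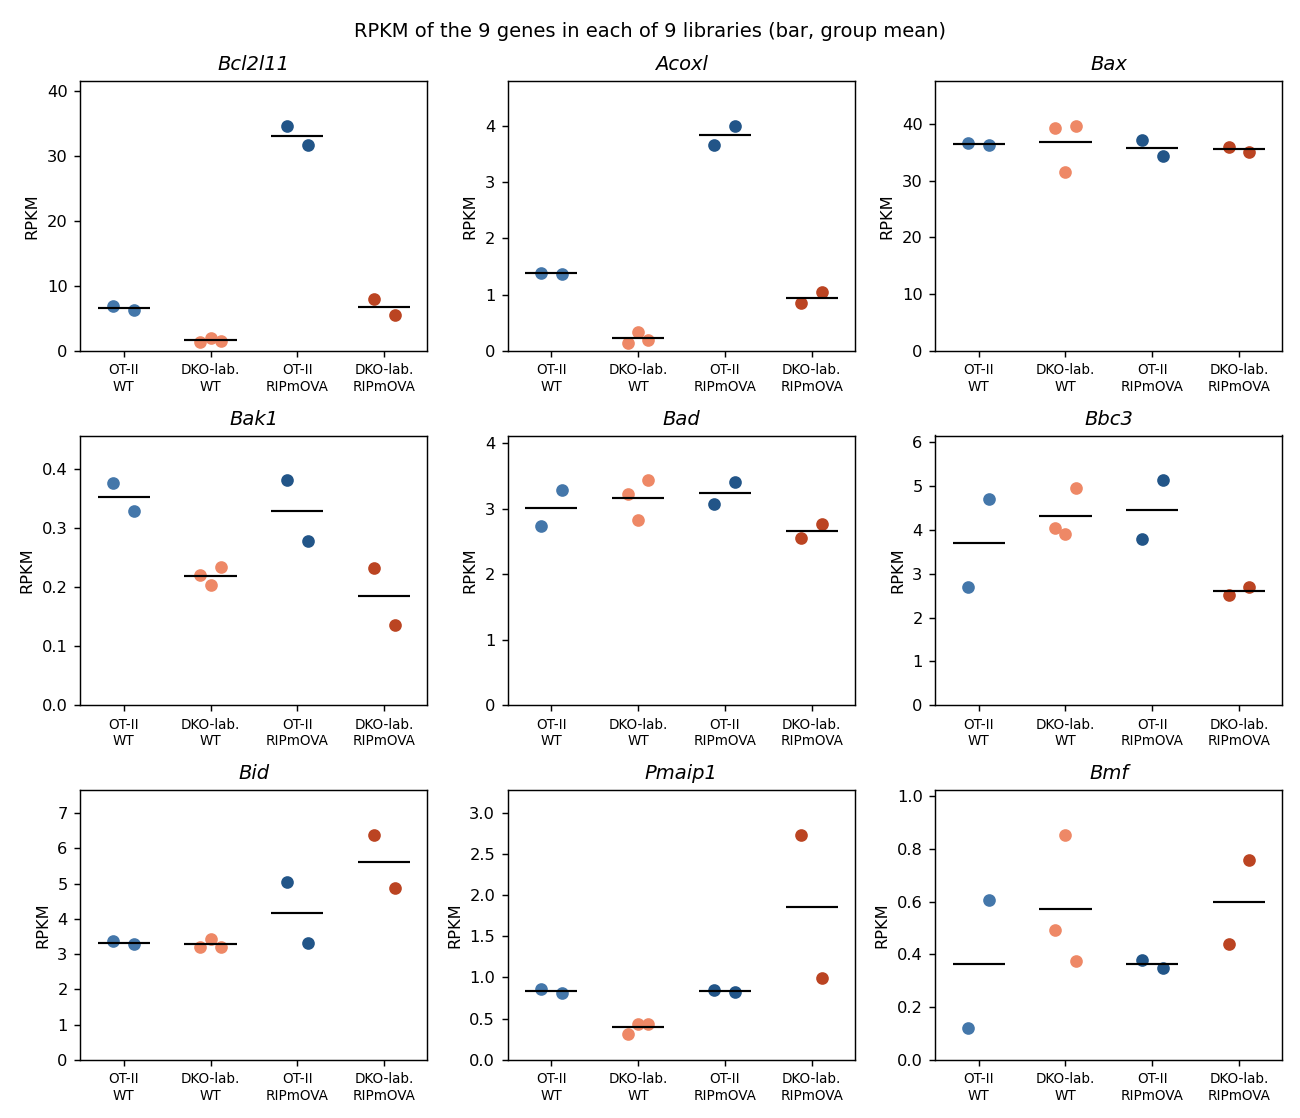
RPKM of the 9 genes (y axes from 0, one panel per gene) in the 2 OT-II and 3 DKO-labelled WT-host libraries and the 2 OT-II and 2 DKO-labelled RIPmOVA-host libraries, with a point for each library and a bar at the group mean. Bcl2l11 and Acoxl are both highest in OT-II from RIPmOVA hosts and lowest in DKO-labelled from WT hosts, and the middle groups overlap for Bcl2l11 but not for Acoxl, while Bax lies between 31.6 and 39.7 RPKM in all 9 libraries.

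Among the 9 genes, Bcl2l11 and Acoxl varied most between libraries. Bcl2l11 ranged from 1.35 to 34.6 RPKM, a ratio of 25.8, and Acoxl from 0.14 to 4.003 RPKM, a ratio of 28.6. The ratio of highest to lowest library was 1.26 for Bax, 1.35 for Bad, 2.00 for Bid, 2.03 for Bbc3, 2.79 for Bak1, 7.12 for Bmf and 8.87 for Pmaip1. The plot of RPKM by library shows that the wide ranges of Pmaip1 and Bmf lie at low levels and owe much to a single library each, the DKO-labelled library 1 from RIPmOVA hosts for Pmaip1 and the OT-II library 1 from WT hosts for Bmf.

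Levels of different genes were compared per length. The gene lengths in the table count overlapping exons of different transcripts more than once, by a factor of 1.19 for Acoxl to 2.24 for Pmaip1, so RPKM was also recomputed per kilobase of merged exons. On that scale Bax was at 51.7 to 65.0 in all libraries. Bcl2l11 was at 2.60 to 3.90 in DKO-labelled WT-host libraries, at 12.2 and 13.3 in OT-II WT-host libraries, at 10.7 and 15.3 in DKO-labelled RIPmOVA-host libraries, and at 61.3 and 67.0 in OT-II RIPmOVA-host libraries. In this last group both Bcl2l11 values lay just above the Bax values of 56.5 and 60.8, whereas on the RPKM scale the values of Bcl2l11 (31.7 and 34.6) and Bax (34.5 and 37.1) overlapped, so the order of the pair depends on the length used. Bad, Bid and Bbc3 were at 3.57 to 9.83 per merged kilobase, and their ranges overlapped. Each lay above Bcl2l11 in the DKO-labelled WT-host libraries and below it in the libraries of the other groups. Pmaip1 was at 0.69 to 6.12, Bmf at 0.233 to 1.66 and Bak1 at 0.261 to 0.731.

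Of the 9 genes, 6 passed the filter on low values (at least 1 RPKM in at least 2 libraries) and were tested among 11569 genes. Acoxl passed it through the OT-II libraries and 1 DKO-labelled RIPmOVA-host library. Bak1, Bmf and Pmaip1 did not pass, and their fold changes below come from a fit to all 23804 genes with any reads. Calls needed an adjusted p at or below 0.05 together with a log2 fold change of 1 or more in either direction. Fold changes are on the log2(RPKM + 0.5) scale, which understates the change of genes at low levels such as Acoxl. All p-values come from limma, two-sided, and adjusted ones were corrected by the Benjamini-Hochberg method across every gene in the fit.

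The 2 kinds of host, with and without the self-antigen, were compared first, in OT-II cells. In OT-II libraries Bcl2l11 was 6.86 and 6.32 RPKM in WT hosts and 34.6 and 31.7 RPKM in RIPmOVA hosts. Both RIPmOVA libraries lay far above both WT libraries, and the group means were 6.59 ± 0.381 and 33.2 ± 2.08 RPKM (SD, n = 2 each), a ratio of 5.03. Acoxl was 1.39 and 1.37 RPKM in WT hosts and 3.67 and 4.003 RPKM in RIPmOVA hosts, a ratio of means of 2.78. The Acoxl groups did not overlap either. These were the 2 of the 6 tested members with RIPmOVA above WT in every library, where 19.4% of all genes tested were so. In limma the log2 fold change was 2.25 (SE 0.19, adjusted p = 0.00092) for Bcl2l11 and 1.21 (SE 0.25, adjusted p = 0.046) for Acoxl. These 2 of the 6 genes tested were called, both higher, where 1.23% of all genes tested were called (1.05% higher). The median log2 fold change was 0.27 over the 6 and -0.02 over all genes.

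The other members showed no called change in OT-II cells. Bax had a log2 fold change of -0.03 (95% interval -0.30 to 0.24) and Bad of 0.09 (-0.25 to 0.44). Bbc3 was 2.70 and 4.70 RPKM in WT hosts and 3.79 and 5.12 RPKM in RIPmOVA hosts, and the groups overlapped. Bid was 3.36 and 3.29 RPKM in WT hosts and 5.04 and 3.31 RPKM in RIPmOVA hosts, so the difference of its means came from 1 library. Pmaip1 was 0.864 and 0.815 RPKM in WT hosts and 0.842 and 0.824 RPKM in RIPmOVA hosts, with both RIPmOVA values inside the range of the WT values. The call of Acoxl lay close to the threshold and was lost when any 1 of 8 of the 9 libraries was left out (adjusted p 0.061 to 0.3), with a log2 fold change that stayed between 1.15 and 1.26. Bcl2l11 kept its call under every alternative run for this comparison.

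The same comparison in DKO-labelled cells showed a rise of both neighbours from lower levels. Bcl2l11 was 1.35, 2.02 and 1.49 RPKM in WT hosts and 7.93 and 5.51 RPKM in RIPmOVA hosts. The ratio of the means, 1.62 ± 0.353 (SD, n = 3) and 6.72 ± 1.71 RPKM (SD, n = 2), was 4.16. The level in DKO-labelled cells from RIPmOVA hosts, 5.51 and 7.93 RPKM, bracketed the 6.32 and 6.86 RPKM of OT-II cells from WT hosts. Acoxl was 0.14, 0.326 and 0.20 RPKM in WT hosts, from 13 to 25 reads, and 0.849 and 1.04 RPKM in RIPmOVA hosts, from 66 and 69 reads. Its ratio of means was 4.26, larger than the 2.78 of OT-II cells, although the fitted change was the smaller of the pair because of the pseudocount. The log2 fold change was 1.76 (SE 0.17, adjusted p = 0.0012) for Bcl2l11 and 1.01 (SE 0.23, adjusted p = 0.046) for Acoxl. Both were called higher, where 1.68% of all genes tested were called (1.52% higher). Their median with the other members tested was 0.32, against 0.03 over all genes.

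Of the remaining members in DKO-labelled cells, none was called between hosts. Bid, which is activated by cleavage and links death receptors to mitochondria, was 3.21, 3.43 and 3.19 RPKM in WT hosts and 6.38 and 4.87 RPKM in RIPmOVA hosts. Its groups did not overlap, and the log2 fold change was 0.69 (SE 0.17, adjusted p = 0.075). Bbc3 was 4.05, 3.91 and 4.95 RPKM in WT hosts and 2.52 and 2.70 RPKM in RIPmOVA hosts, with a log2 fold change of -0.62 (SE 0.21, adjusted p = 0.18). With the log2 summed RPKM of sensory receptor genes as a covariate, the Bbc3 change shrank to -0.26. Pmaip1 was 0.308, 0.438 and 0.437 RPKM in WT hosts and 2.73 and 0.992 RPKM in RIPmOVA hosts, with a log2 fold change of 1.30 (SE 0.35, adjusted p = 0.12) in the unfiltered fit. In these 3 genes every RIPmOVA library lay on one side of every WT library. Of the 6 members tested, 3 were higher without overlap (Bcl2l11, Acoxl and Bid; 22.7% of all genes tested) and 2 lower (Bad and Bbc3; 17.3%), and in the unfiltered table, where Pmaip1 was higher, 29.9% of genes were higher without overlap. Bax had a log2 fold change of -0.04 (95% interval -0.29 to 0.20) and Bad of -0.21 (-0.53 to 0.11). The call of Acoxl in this comparison was lost under most alternatives, and quantile normalization lowered its log2 fold change to 0.33.

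**Figure D2:**
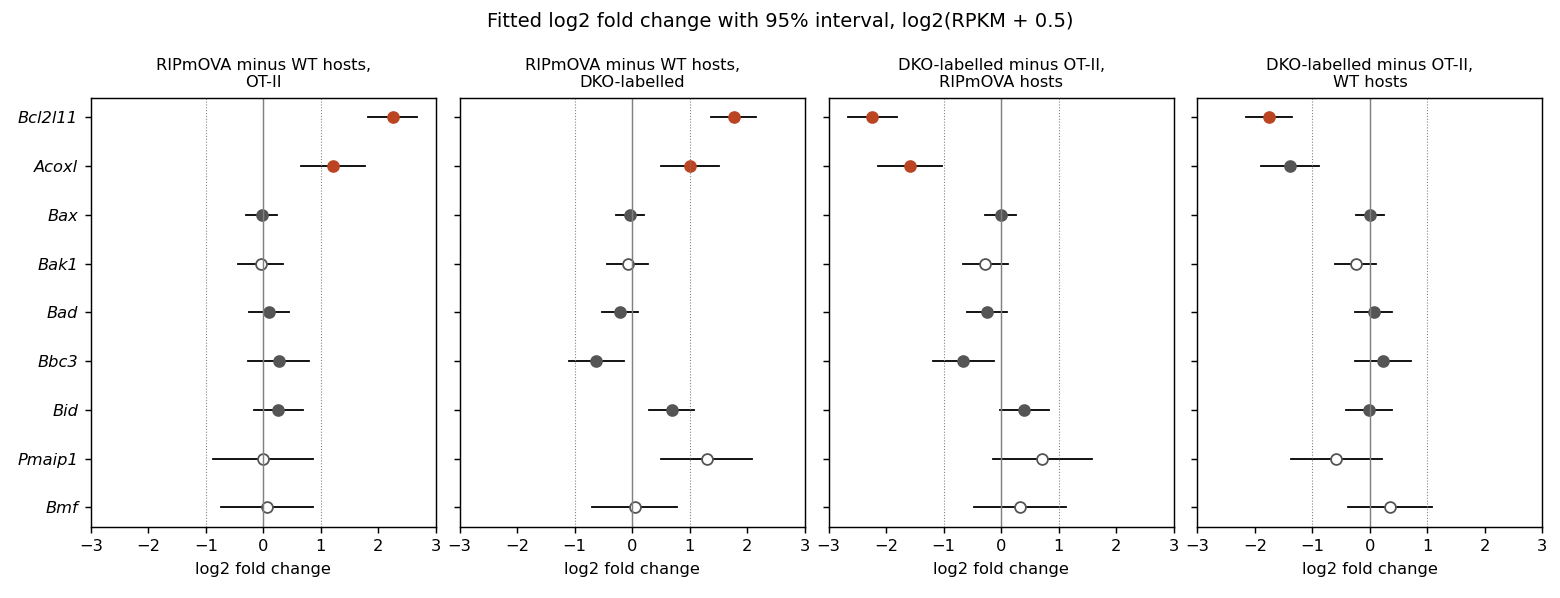
Log2 fold change (x axes) of the 9 genes in the 4 pairwise comparisons, with a 95% interval; red points were called, open points come from the fit without a filter, and dotted lines mark -1 and 1. Bcl2l11 lies beyond the dotted lines in all 4 panels, from -2.24 to 2.25, and Bax lies within 0.05 of 0 in each.

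DKO-labelled and OT-II cells from the same RIPmOVA chimeras were compared next, to ask what differed under the DKO label when the self-antigen was present. Bcl2l11 was 34.6 and 31.7 RPKM in OT-II libraries and 7.93 and 5.51 RPKM in DKO-labelled libraries, a ratio of means of 4.93. Within chimera 1 the OT-II value was 4.37 times the DKO-labelled value, and within chimera 2 it was 5.75 times. Acoxl was 3.67 and 4.003 RPKM in OT-II libraries and 0.849 and 1.04 RPKM in DKO-labelled libraries, 4.33 and 3.85 times within the chimeras. The log2 fold change was -2.24 (SE 0.19, adjusted p = 0.00088) for Bcl2l11 and -1.59 (SE 0.25, adjusted p = 0.015) for Acoxl. Both were called lower, where 1.07% of all genes tested were called (0.562% lower). With the chimera as a replicate block, Bcl2l11 kept its call and Acoxl did not (log2 fold change -1.59, adjusted p = 0.081), and leaving out any 1 of the 4 RIPmOVA libraries also ended the Acoxl call (adjusted p 0.072 to 0.14).

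Bbc3 and Bad were also lower in both DKO-labelled libraries than in both OT-II RIPmOVA-host libraries, without being called. Bbc3 was 3.79 and 5.12 RPKM for OT-II and 2.52 and 2.70 RPKM for DKO-labelled libraries, with a log2 fold change of -0.66 (SE 0.24, adjusted p = 0.16). Bad, which binds BCL2 and BCL-XL, was 3.07 and 3.41 against 2.55 and 2.77 RPKM, with a log2 fold change of -0.24 (SE 0.15, adjusted p = 0.38). With the sensory receptor covariate in the fit, these decreases shrank to -0.13 for Bbc3 and -0.001 for Bad, whereas Bcl2l11 was at -2.475. The part of the background in the Bbc3 and Bad values was not tested further. In all, 4 of the 6 genes tested had groups that did not overlap with DKO-labelled lower, where 24.4% of all genes tested did. Bid and Pmaip1 had higher means in DKO-labelled libraries, with log2 fold changes of 0.41 (95% interval -0.03 to 0.84) and 0.72 (-0.15 to 1.59). Pmaip1 did not overlap, and 48.9% of the genes in the unfiltered table were likewise higher under the DKO label. Bax was at 37.1 and 34.5 RPKM in OT-II and 36.0 and 35.1 RPKM under the DKO label, which gave a log2 fold change of -0.01 (-0.27 to 0.26). The median over the 6 genes was -0.45, against 0.04 over all genes.

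In WT hosts, without ovalbumin, Bcl2l11 was again lower under the DKO label. It was 6.86 and 6.32 RPKM for OT-II and 1.35, 2.02 and 1.49 RPKM for DKO-labelled libraries, a ratio of means of 4.08 with no overlap. Bcl2l11 and Acoxl were the 2 of 6 tested members lower in every DKO-labelled library, as were 10.3% of all genes tested. The log2 fold change was -1.76 (SE 0.17, adjusted p = 0.0058). Acoxl was 1.39 and 1.37 against 0.14, 0.326 and 0.20 RPKM, a ratio of means of 6.22, with a log2 fold change of -1.39 (SE 0.23, adjusted p = 0.098) that was not called. Only 0.0605% of all genes tested, 7 genes, were called in this comparison (0.0519% lower), and Bcl2l11 was the 1 member among them. Over the 4 chimeras with both libraries, the log2 ratio of DKO-labelled to OT-II RPKM lay between -2.52 and -1.65 for Bcl2l11 and between -3.31 and -1.94 for Acoxl, negative in 4 of 4 for each. The Bcl2l11 call was lost with the chimera as a replicate block (log2 fold change -1.72, adjusted p = 0.14), a fit in which the third DKO-labelled library had no partner, without OT-II library 1 (-1.70, adjusted p = 0.075) and without DKO-labelled library 3 (-1.72, adjusted p = 0.055). With OT-II library 1 and DKO-labelled library 2 both left out, the 2 WT-host libraries with the most sensory receptor reads, it was -1.83 (adjusted p = 0.13).

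Bak1 (BAK) was lower in the DKO-labelled library in 4 of 4 chimeras, though at low levels. In WT hosts Bak1 was 0.376 and 0.328 RPKM for OT-II and 0.221, 0.204 and 0.233 RPKM for DKO-labelled libraries, and in RIPmOVA hosts it was 0.380 and 0.277 against 0.232 and 0.136 RPKM. The values rested on 11 to 35 reads per library. Of the unfiltered genes 6.72% were lower without overlap in WT hosts and 13.3% in RIPmOVA hosts. In the unfiltered fit the log2 fold change was -0.24 (SE 0.16, adjusted p = 1) in WT hosts and -0.28 (SE 0.17, adjusted p = 0.31) in RIPmOVA hosts, and neither was called. Bmf, a BH3-only protein linked to the cytoskeleton, was higher in the DKO-labelled library in each chimera, by 0.21 to 2.04 on the log2 scale of the RPKM ratio. In RIPmOVA hosts its DKO-labelled values were higher without overlap, as were 48.9% of the genes in the unfiltered table. In WT hosts its groups overlapped. Its OT-II values from WT hosts, 0.12 and 0.607 RPKM, were further apart than any of its group means, and its log2 fold changes of 0.33 to 0.35 were not called (adjusted p 0.56 and 1).

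The interaction, the host effect in DKO-labelled minus that in OT-II libraries, asked whether the response to the host differed between genotypes. For Bcl2l11 it was -0.48 on the log2 scale (SE 0.26, 95% interval -1.07 to 0.10, adjusted p = 0.55), and for Acoxl -0.20 (SE 0.33, -0.95 to 0.55, adjusted p = 0.85). With a pseudocount of 0.1 in place of 0.5 the Acoxl value was 0.32 (adjusted p = 0.85), so its sign was not determined. Of the 6 genes tested, 0 were called by limma, where 0.0173% of all genes tested were called. Against 1078 of all 11569 genes, 1 of the 6 had an unadjusted p under 0.05. That gene was Bbc3, at -0.89 (SE 0.32, adjusted p = 0.50), with a host effect of 0.27 for OT-II against -0.62 under the DKO label. Pmaip1 had an interaction of 1.31 (SE 0.51, adjusted p = 0.39) in the unfiltered fit. The host and genotype comparisons share libraries, so their values for one gene are not independent of each other.

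Ratios within a library do not depend on how libraries were scaled to each other. The RPKM ratio of Bcl2l11 to Bax was 0.187 and 0.174 in OT-II WT-host libraries and 0.933 and 0.920 in OT-II RIPmOVA-host libraries. It was 0.0342, 0.0638 and 0.0375 in DKO-labelled WT-host libraries and 0.220 and 0.157 in those from RIPmOVA hosts. Against Mcl1, a pro-survival gene, the ratio of Bcl2l11 was 0.0342 and 0.0382 in OT-II and 0.00783 to 0.0131 in DKO-labelled WT-host libraries. In RIPmOVA hosts that ratio was 0.199 and 0.192 for OT-II against 0.0494 and 0.0465 under the DKO label. Against Bcl2, the ratio was 0.177 and 0.180 in OT-II and 0.0364 to 0.0626 in DKO-labelled WT-host libraries, and 0.942 and 0.739 against 0.401 and 0.251 in those from RIPmOVA hosts. With each of the 3 denominators, the OT-II RIPmOVA-host libraries were highest and the DKO-labelled WT-host libraries lowest. The DKO-labelled RIPmOVA-host libraries overlapped the OT-II WT-host libraries for Bax and lay above them for Bcl2 and Mcl1. The ratio of Acoxl to Bcl2l11 varied far less, from 0.104 to 0.217.

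**Figure D3:**
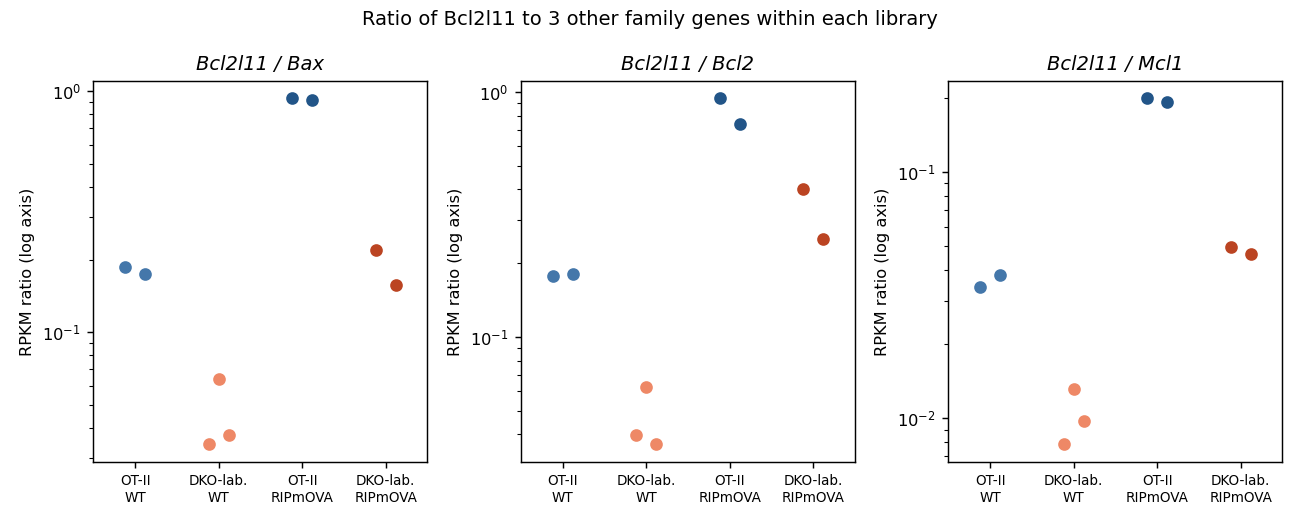
RPKM ratio of Bcl2l11 to Bax, Bcl2 and Mcl1 within each library (log y axes), by group, with a point for each library. In each panel the 2 OT-II RIPmOVA-host libraries are highest, up to 0.942 for Bcl2, and the 3 DKO-labelled WT-host libraries are lowest.

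The position of Acoxl beside Bcl2l11 raised the question whether other genes nearby moved as well. Of 33 genes in the table that start within 1 Mb of the Bcl2l11 start, 20 besides the pair passed the filter. Limma called 0 of these 20 in any of the 5 comparisons, and 1 to 4 of them had an unadjusted p under 0.05. Over all 11569 genes tested, 0.0173% to 1.68% were called, and 913 to 2471 genes had an unadjusted p under 0.05. Calls were too rare for 0 of 20 to set these neighbours apart from other genes. In OT-II cells their log2 fold changes between hosts ran from -0.34 to 0.60 (median -0.06), against 2.25 for Bcl2l11 and 1.21 for Acoxl. Between genotypes in RIPmOVA hosts they ran from -0.15 to 1.03 (median 0.16), against -2.24 and -1.59. Bub1, a mitotic checkpoint kinase whose start lies at -294.2 kb from that of Bcl2l11, just upstream of Acoxl, had log2 fold changes of 0.41 (SE 0.37) between hosts in OT-II cells and 0.80 (SE 0.37) between genotypes in RIPmOVA hosts. Polr1b, a subunit of RNA polymerase I at 975 kb downstream, was 0.72 higher in DKO-labelled libraries (SE 0.10, adjusted p = 0.011), under the limit of 1 on the fold change.

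**Figure D4:**
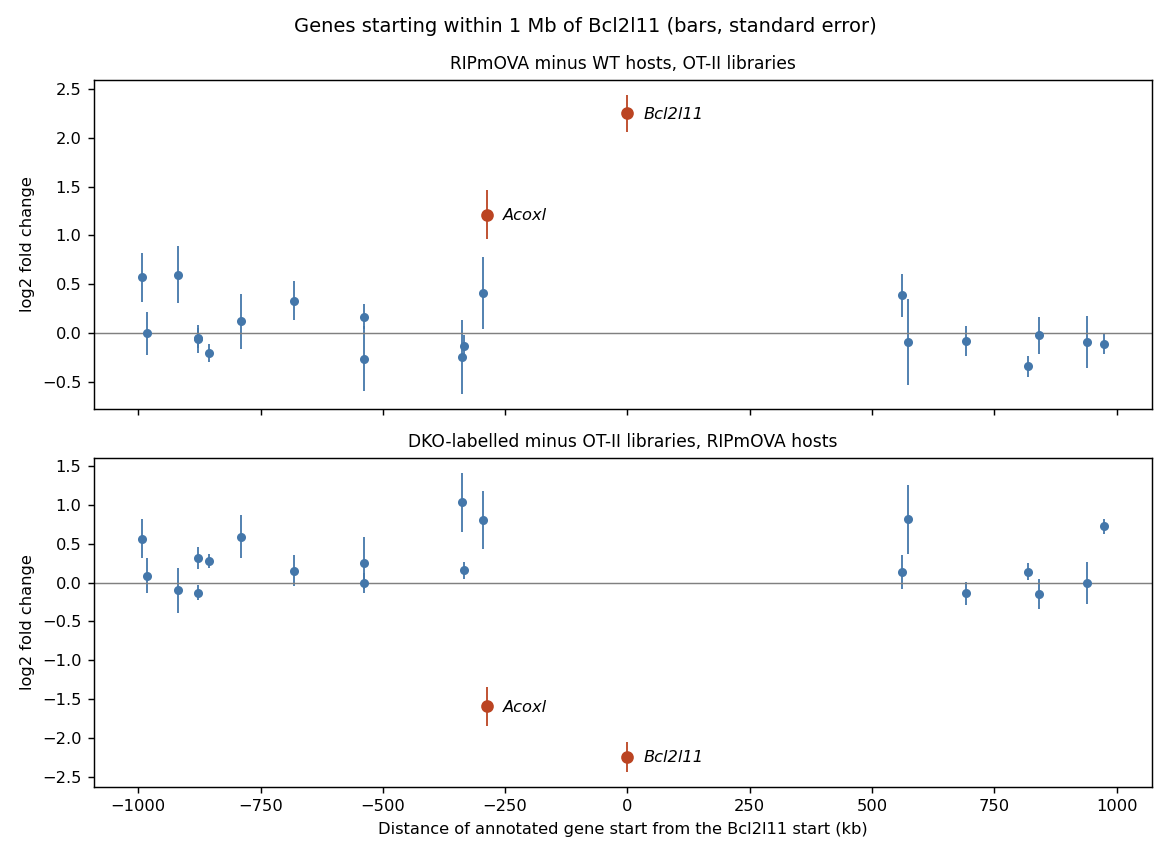
Log2 fold change (y axes, bars are the standard error) of genes that passed the filter against the distance in kb of their annotated start from the Bcl2l11 start (x axis), between hosts in OT-II libraries (top) and between genotypes in RIPmOVA hosts (bottom). Bcl2l11 and Acoxl, in red, stand at 2.25 and 1.21 in the top panel and at -2.24 and -1.59 in the bottom panel, and the 20 other genes stay between -0.34 and 1.03.

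The genes with a profile most like each of the pair were found by the root-mean-square difference of centred log2(RPKM + 0.5) values over the 9 libraries, among 11568 other genes. For Bcl2l11 the closest were 1110032F04Rik (0.372), Gm4956 (0.431), Nkg7 (0.453), Gsto1 (0.465) and Tigit (0.549), and Acoxl ranked 7 with 0.558. A flat profile would differ from Bcl2l11 by 1.473. Nkg7, a granule protein of cytotoxic cells, had mean RPKM of 1.93 and 0.497 in OT-II and DKO-labelled WT-host libraries and 17.1 and 1.36 in those from RIPmOVA hosts. Tigit, an inhibitory receptor, was at 0.937, 0.0983, 4.74 and 0.66 RPKM in the same order. For Acoxl the closest were Ikzf4 (0.297), Ahr (0.319), Rcn1 (0.344), Nrgn (0.352) and Lysmd2 (0.353), and Bcl2l11 ranked 75. Ikzf4, which encodes the factor EOS, had means of 2.55, 0.994, 7.42 and 3.61 RPKM, and Ahr, the aryl hydrocarbon receptor, of 2.49, 0.86, 8.07 and 1.63 RPKM. These are descriptions of 9 libraries that share their groups.

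The sum of regulatory T cell markers was, like Bcl2l11, highest in OT-II RIPmOVA-host libraries and lowest in DKO-labelled WT-host libraries. Its DKO-labelled RIPmOVA-host libraries lay above the OT-II WT-host libraries, whereas for Bcl2l11 these groups overlapped. The summed RPKM of 5 regulatory T cell markers (Foxp3, Il2ra, Ikzf2, Ikzf4 and Lrrc32) was 5.99 to 9.11 in OT-II and 2.40 to 4.12 in DKO-labelled WT-host libraries, and 43.1 to 44.0 in OT-II and 17.7 to 27.9 in DKO-labelled RIPmOVA-host libraries. Of these 5, 4 were called higher in RIPmOVA hosts in OT-II cells and 3 in DKO-labelled cells, and 2 were called lower in DKO-labelled cells from RIPmOVA hosts. Over all genes tested, 1.05% and 1.52% were called higher between hosts in OT-II and DKO-labelled cells. Between genotypes in RIPmOVA hosts, 0.562% were called lower. Foxp3, the defining factor of that lineage, was 0.29 and 0.491 RPKM in OT-II WT-host libraries and 1.90 and 3.31 RPKM in OT-II RIPmOVA-host libraries. It was 0.037 to 0.092 RPKM in all 5 DKO-labelled libraries. The sort did not use Foxp3 or CD25, and per the labels most regulatory T cells in these chimeras came from the donor without the transgene. The summed RPKM of 7 myeloid markers was 3.21 to 11.4 and 2.06 to 4.45 in OT-II and DKO-labelled WT-host libraries and 11.6 to 22.4 and 4.84 to 6.15 in those from RIPmOVA hosts, with Lyz2 the most abundant and 0 of the 3 tested called. In bulk samples fewer cells of a type and less RNA per cell cannot be told apart, and the part of these markers in the Bcl2l11 and Acoxl results was not tested.

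Markers of the remaining cell types were given by their sums. For the sum of 5 B cell markers the libraries lay between 2.72 and 10.5 RPKM, and none of the 2 tested was called. The sum of 6 thymic epithelial markers was 2.75 to 6.98 RPKM, except for 8.23 and 11.8 RPKM in DKO-labelled RIPmOVA-host libraries, where Epcam was called higher between hosts (log2 fold change 1.47, adjusted p = 0.013). Of 4 NK and γδ T cell markers in the table, Tbx21, a T helper factor as well, was called higher in RIPmOVA hosts in both genotypes, by 3.09 and 3.29 on the log2 scale. Sums of 6 double-positive or CD8 thymocyte markers were 79.3 to 124 RPKM and of 6 erythroid and stromal markers 32.2 to 60.4 RPKM, with none of the tested members of either list called.

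The pro-survival relatives, which bind the BH3-only proteins, were led by Mcl1 and Bcl2. Mcl1 was at 119 to 200 RPKM over all libraries, with log2 fold changes of -0.10 and -0.20 between hosts and of -0.20 and -0.30 between genotypes, none called. Bcl2 was 38.8 and 35.1 RPKM for OT-II and 33.9, 32.2 and 40.9 RPKM for DKO-labelled WT-host libraries, and 36.8 and 42.9 RPKM against 19.8 and 21.9 RPKM in those from RIPmOVA hosts. The DKO-labelled RIPmOVA-host libraries were thus lower than the other 7. The log2 fold change of Bcl2 was -0.91 (SE 0.13, adjusted p = 0.012) between genotypes in RIPmOVA hosts and -0.76 (SE 0.12, adjusted p = 0.013) between hosts in DKO-labelled libraries, both short of the limit of 1. Of 6 pro-survival genes tested, 2 were called higher in RIPmOVA hosts in OT-II cells, 3 in DKO-labelled cells, and 0 between genotypes by limma. Of all genes tested, 1.05% and 1.52% were called higher between hosts in OT-II and DKO-labelled cells. Between genotypes 2 of the 6 had an unadjusted p under 0.05 in each host. Over all 11569 genes, 2471 did so in RIPmOVA hosts and 913 in WT hosts. The called ones were all copies of Bcl2a1, whose near-identical sequences leave the share of reads of each copy uncertain. Bcl2a1d was 10.2 to 13.4 RPKM in OT-II WT-host libraries and 59.2 to 71.0 RPKM in those from RIPmOVA hosts. Its log2 fold change was 2.42 (adjusted p = 0.0021), and Bcl2a1b changed by 2.09 (adjusted p = 0.020). In DKO-labelled cells Bcl2a1a, Bcl2a1b and Bcl2a1d changed by 1.70, 2.64 and 2.63 (adjusted p 0.035, 0.0026 and 0.00059).

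Other genes of the pathway were read from further lists. Of 9 further pro-apoptotic relatives 3 were tested (Bnip3, Bnip3l and Bcl2l13), and 0 were called in the 5 limma comparisons, with 0 at an unadjusted p under 0.05. Of 10 genes for mitochondrial pores and for partners that bind or modify BH3-only proteins, 0 were called by limma, with 0 to 2 at an unadjusted p under 0.05 in each comparison. Over all 11569 genes tested, 913 to 2471 had an unadjusted p under 0.05, depending on the comparison. Of 12 upstream regulators tested, 3 were called higher between hosts in each genotype, and all were Nr4a genes. Nr4a1 rose by 1.75 for OT-II and 1.77 under the DKO label, Nr4a2 by 3.13 and 3.93, and Nr4a3 by 2.90 and 4.20. Nr4a3 was also the 1 regulator called between genotypes in RIPmOVA hosts, higher under the DKO label by 1.63 (SE 0.28, adjusted p = 0.024). In that comparison 1.07% of all genes tested were called. Foxo1, a known activator of Bcl2l11, had log2 fold changes of -0.15 and -0.03 between hosts, and Trp53, which activates Bbc3 and Pmaip1, of 0.16 and 0.06, none called.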

How the data were processed

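RNA was amplified with SMART-seq v4, and Nextera XT libraries were sequenced with paired ends. According to the methods, reads were mapped with STAR by the authors (mm10, GENCODE vM17); duplicates marked by Picard were removed, and exon reads were summed per Entrez gene. RPKM, the unit of the deposited table, was derived by the authors from those sums. Gene length, also deposited, equals the sum of distinct exons for 79.3% of the symbols compared and bears on levels between genes only. Versions of STAR and Picard, and whether counting used strand, are not given in the sources used here. Bak1, Bad and Bid overlap genes on the other strand, so their values are uncertain. The spans of Acoxl, Bax and Bid also overlap annotated genes on the same strand (Gm22411 and Gm23101, Gm45808, and Gm44260). Whether reads are shared with those genes was not tested.

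Depth was recovered from low RPKM values (100% whole within 0.1 reads). The 11569 genes that reached 1 RPKM in 2 or more libraries were fitted as log2(RPKM + 0.5) in a group-means model of all 9 libraries with limma 3.58.1 in R 4.3.3 (intensity trend, two-sided test). Python 3.11.15, numpy 2.4.6, pandas 2.3.3 and matplotlib 3.10.9 were used. The labels call same-numbered OT-II and DKO-labelled libraries 1 mouse, so they are paired by chimera in the genotype comparisons; the deviations of such pairs from their group means correlated at -0.24 to 0.01. The members, gene lists and rules (all members, list genes called, genes within 1 Mb, the 5 most alike profiles) were chosen with earlier results of these data known. Replicates came from separate chimeras. Alternatives were other pseudocounts, filters, scalings and fits, and leaving out libraries. Some genes of the pathway and marker lists are not reported here.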

Additional observations from a re-analysis of the deposited data

Results flagged for a closer look

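Pmaip1, which encodes the BH3-only protein NOXA, had a genotype difference of opposite direction in the 2 kinds of host, without overlap in either. Of all genes in the unfiltered table, 48.9% were higher without overlap under the DKO label in RIPmOVA hosts, and 6.72% were lower in WT hosts. In RIPmOVA hosts both DKO-labelled libraries (2.73 and 0.992 RPKM) lay above both OT-II libraries (0.842 and 0.824 RPKM), and the log2 ratio of the means was 1.16. In WT hosts the 3 DKO-labelled libraries (0.308, 0.438 and 0.437 RPKM) lay below both OT-II libraries (0.864 and 0.815 RPKM). The interaction that tests this difference was 1.31 on the log2(RPKM + 0.5) scale (SE 0.51, unadjusted p = 0.0329, adjusted p = 0.39 in limma without a filter), so it did not pass. Pmaip1 reached 1 RPKM in 1 library, the DKO-labelled library 1 from RIPmOVA hosts, where it had 342 reads against 46 to 122 reads in the others. The DKO-labelled libraries from RIPmOVA hosts were also those with the highest sensory receptor sums, 503 and 669 RPKM, and the part of that background in the Pmaip1 values was not tested.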

How the results depend on the processing

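Bcl2l11 kept its direction and call under every alternative between hosts in either genotype, and also between genotypes under RIPmOVA. In WT hosts its genotype call was lost with only the compared groups (-1.76, adjusted p = 0.076), with the replicate block (-1.72), and without both WT-host libraries of highest background (-1.83, an alternative chosen after seeing the data), each leaving 0 members called. With 1 library left out it was -1.89 to -1.66, and the call was lost without OT-II library 1 (-1.70) or DKO-labelled library 3 (-1.72) and kept without each of the others. There were 2 members called without the intensity trend, where Acoxl passed at -1.39.

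Acoxl calls were fragile. Its host effect in OT-II lost its call at a pseudocount of 0.1 (1.41), with no filter, only the compared groups or the replicate block (1.21 each), quantile normalization (1.16) and without both high-background libraries (1.21), and was 1.15 to 1.26 with 1 library left out. In DKO-labelled libraries it lost its call at a pseudocount of 1 (0.67), with no filter or only the compared groups (1.01 each), median-of-ratios rescaling (0.90), quantile normalization (0.33), the replicate block (0.99) and the sensory receptor covariate (0.91), and was 0.91 to 1.11 with 1 library left out. Between genotypes in RIPmOVA hosts it lost its call with the replicate block (-1.59) and the covariate (-1.73), and was -1.68 to -1.49 with 1 library left out. In these 3 comparisons 1 member stayed called wherever Acoxl was lost, as with the filter at RPKM 5, which removes Acoxl, and 1 or 2 were called with 1 library left out (0 or 1 between genotypes in WT hosts). The Acoxl interaction, not called in any setting, turned to 0.32 at a pseudocount of 0.1. The causes were not tested.

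Near-zero values that were not called changed sign. Bax turned to 0.032 (host, OT-II, median-of-ratios), to 0.054, 0.013 and 0.008 (host, DKO-labelled; covariate, replicate block, quantile), to 0.038 and 0.136 (genotype, RIPmOVA; quantile, covariate), to -0.050 and -0.009 (genotype, WT; replicate block, covariate) and to 0.043, 0.145 and 0.025 (interaction; replicate block, covariate, quantile). With 1 library left out Bax was -0.083 to 0.023, -0.149 to 0.013, -0.060 to 0.046, -0.050 to 0.112 and -0.119 to 0.043 in the 5 comparisons. Bad turned to -0.010 (host, OT-II, covariate) and -0.020 without both high-background libraries, and was -0.020 to 0.208 (host, OT-II) and -0.052 to 0.177 (genotype, WT) with 1 left out. Bbc3 turned to -0.081 (host, OT-II) and -0.061 (genotype, WT) without both, and was -0.081 to 0.618 and -0.120 to 0.579 with 1 left out. Bid turned to 0.001 (genotype, WT, covariate) and was -0.006 to 0.534 (host, OT-II) with 1 left out.

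Counts over all genes moved by more than 1.5 times in these cases. For the host effect in OT-II (142 genes) they were 31 with only the compared groups, 219 on adjusted p alone, 78 with the replicate block, 61 without both high-background libraries and 50 to 296 with 1 left out. For the host effect in DKO-labelled libraries (194) they were 387 on adjusted p alone, 110 with the replicate block, 85 with the covariate, 565 without both and 98 to 259 with 1 left out. Between genotypes in RIPmOVA hosts (124) they were 81 at RPKM 5, 214 with median-of-ratios, 201 with quantile normalization, 220 with only the compared groups, 256 on adjusted p alone, 20 with the covariate, 585 without both and 21 to 217 with 1 left out. In WT hosts (7) they were 18 with median-of-ratios, 2 with only the compared groups, 2 with the replicate block, 4 without both and 5 to 100 with 1 left out. The interaction (2) gave 0 at a pseudocount of 0.1, at RPKM 5, with the replicate block, with the covariate and without both, 8 with no filter, 7 with median-of-ratios and 0 to 159 with 1 left out. Median-of-ratios shifted the median gene by -0.13 (host, DKO-labelled), -0.17 (genotype, RIPmOVA) and -0.19 (interaction). The block pairs chimeras in the genotype comparisons, but only numbers in the host comparisons. Acoxl in DKO-labelled libraries from WT hosts rested on 13 to 25 reads, which limits its precision.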
